A study of Mus musculus with 13 samples.

Results

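The 253 regions described here carried a peak of acetylated lysine 27 of histone H3 (H3K27ac) in all 3 female ΔEcad melanoma lines, Ma_1057, Ma_1064 and Ma_1069, and in none of the 6 other lines of the series. They were chosen by that pattern of peak calls: overlapping or touching peaks of the 9 lists were joined into 59668 regions, of which 58221 lay on the 19 autosomes, and 253 of these had the pattern, that is 0.435%. Because the calls chose them, the presence of a peak in the 3 lists and its absence from the 6 others is the rule and not a finding. No test was run on the strength of the peaks, and the regions are described by their values, positions, neighbouring genes and sequence.

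The lines came from melanomas of mice on a C57BL/6J background that carried the Tyr::NRAS transgene with the Q61K change, expressed in the melanocyte lineage, 1 lost copy of Cdkn2a (Cdkn2a+/-) and floxed Cdh1 (Cdh1 F/F), the gene for E-cadherin. The ΔEcad lines also carried Tyr::CreA, a Cre recombinase driven in the same lineage that removes Cdh1, and the Ecad lines did not. Lines Ma_1007 and Ma_1181 were male Ecad, Ma_1014 and Ma_1039 female Ecad, Ma_1062 and Ma_1456 male ΔEcad, and Ma_1057, Ma_1064 and Ma_1069 female ΔEcad. Each line came from a tumour of 1 animal and gave 1 peak list. For the pattern used here, an effect of sex and genotype together cannot be told apart from anything else that these 3 lines share. The ages of the animals are not given in the sources used here.

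H3K27ac lies on the nucleosomes beside active promoters and enhancers, and the stretch of DNA that transcription factors occupy usually lies between such nucleosomes. E-cadherin joins neighbouring cells and holds β-catenin at the membrane. Free β-catenin can enter the nucleus, where it binds DNA through the TCF/LEF factors, which recognise sequences around CTTTGA. Enhancers often act on a gene other than the nearest, so a gene named below is the gene a region lies in or, between genes, the one with the nearest protein-coding start, and no more than that.

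The 9 lists held 20741 to 41663 peaks, and each peak comes with a fold enrichment and a -log10 q from the peak caller. Promoters of the melanocyte genes Mitf, Sox10, Dct, Tyr, Pmel and Mlana had a peak within 1 kb in 9 of 9 lists and Tyrp1 in 6. Of the 13 promoters fixed as markers of other cell types, 11 had a peak in none of the lists, Pdgfra had one in line Ma_1007 and Cd68 in 4 lines, none of them female ΔEcad. The promoter of Cdh1 was called in no list, and peaks covered 1.66 to 3.16 kb of the gene in the 3 female ΔEcad lines. They covered 4.45 kb in the male ΔEcad line Ma_1062, 7.38 kb in the male ΔEcad line Ma_1456 and 5.14 to 8.79 kb in the Ecad lines. The covered length thus did not follow genotype alone. The paper gives a planned sequencing depth per sample, and the depth that each library reached is unknown.

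A TCF/LEF consensus, here CTTTGAAC, CTTTGAAG, CTTTGATC or CTTTGATG on either strand, was more frequent in these regions than in the comparison sets. In the 500 bp centred on the summit, 58 of the 253 regions held it, or 22.9% (95% Wilson interval 18.2 to 28.5%), against 9.53% (8.74 to 10.4%) of the 5007 other autosomal regions called in exactly 3 lists, 8.25% of those called in all 9 and 9.80% of all. A wider window, planned only as an alternative to the first, was used as a measure of its own after the data were seen. In it, the consensus lay within 500 bp of the summit in 153 of the 253 regions, or 60.5% (54.3 to 66.3%). The share was 20.2% (19.1 to 21.4%) in the other regions called in exactly 3 lists, 16.5% (15.7 to 17.3%) in the 8061 called in all 9 and 20.4% (20.1 to 20.7%) in all 58221. The same letters read backwards, as a control of equal base composition, gave 15.0% (11.1 to 19.9%) in the 253 regions and 14.8% (13.8 to 15.8%) in the other regions called in exactly 3 lists. These intervals cover the counting of regions only, and regions of 1 line or 1 locus are not independent.

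The 12 windows printed next, each 150 bases of the GRCm38 plus strand, are shown because they hold these matches at regions that recur below: 7 of the 30 strongest regions, then Glra1, Slc38a4, Esr1, Tiam2 and Cdh6. The capitals mark each TCF/LEF consensus.
Optn intron, chr2:5045308-5045457: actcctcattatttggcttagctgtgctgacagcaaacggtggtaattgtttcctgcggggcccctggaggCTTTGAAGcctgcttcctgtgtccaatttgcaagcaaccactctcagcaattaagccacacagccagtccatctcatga
Wwc1 intron, chr11:35940876-35941025: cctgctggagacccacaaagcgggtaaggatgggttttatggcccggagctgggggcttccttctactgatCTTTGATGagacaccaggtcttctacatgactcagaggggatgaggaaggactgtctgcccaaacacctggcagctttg
Slc22a23 intron, chr13:34287899-34288048: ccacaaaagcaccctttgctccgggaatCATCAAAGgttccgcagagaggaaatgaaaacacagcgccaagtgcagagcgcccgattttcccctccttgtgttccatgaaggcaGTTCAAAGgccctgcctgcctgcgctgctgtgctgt
Trip12 intron, chr1:84794572-84794721: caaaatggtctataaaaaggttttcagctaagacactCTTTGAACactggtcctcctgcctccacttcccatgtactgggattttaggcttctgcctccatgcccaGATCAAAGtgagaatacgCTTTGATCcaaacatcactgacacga
Alpk1 intron, chr3:127748988-127749137: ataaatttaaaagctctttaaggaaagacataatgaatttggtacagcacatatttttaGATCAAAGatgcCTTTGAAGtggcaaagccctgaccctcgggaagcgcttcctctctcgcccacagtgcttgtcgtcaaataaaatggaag
downstream of Dapl1, chr2:59507451-59507600: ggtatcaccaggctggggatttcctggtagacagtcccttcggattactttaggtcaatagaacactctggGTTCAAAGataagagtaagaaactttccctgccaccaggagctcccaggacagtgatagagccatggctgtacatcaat
Tgfbr2 intron, chr9:116114507-116114656: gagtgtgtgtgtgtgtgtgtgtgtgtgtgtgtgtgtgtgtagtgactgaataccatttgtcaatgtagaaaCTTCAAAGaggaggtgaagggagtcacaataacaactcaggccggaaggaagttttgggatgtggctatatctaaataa
between Glra1 and Nmur2, chr11:55805350-55805499: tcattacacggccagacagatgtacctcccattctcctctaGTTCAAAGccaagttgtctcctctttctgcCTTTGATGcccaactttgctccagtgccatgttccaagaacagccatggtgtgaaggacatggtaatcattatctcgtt
between genes near Slc38a4, chr15:97107748-97107897: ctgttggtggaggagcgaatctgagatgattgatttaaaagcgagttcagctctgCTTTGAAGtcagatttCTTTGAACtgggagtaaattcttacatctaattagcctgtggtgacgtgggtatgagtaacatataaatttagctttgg
Esr1 intron, chr10:4618765-4618914: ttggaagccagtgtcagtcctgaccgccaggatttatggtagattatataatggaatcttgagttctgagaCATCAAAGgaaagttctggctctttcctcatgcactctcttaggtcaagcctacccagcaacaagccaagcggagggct
Tiam2 intron, chr17:3423401-3423550: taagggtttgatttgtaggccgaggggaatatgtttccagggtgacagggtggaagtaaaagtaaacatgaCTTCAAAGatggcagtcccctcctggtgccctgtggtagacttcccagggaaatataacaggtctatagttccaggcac
between Cdh6 and Cdh9, chr15:13246175-13246324: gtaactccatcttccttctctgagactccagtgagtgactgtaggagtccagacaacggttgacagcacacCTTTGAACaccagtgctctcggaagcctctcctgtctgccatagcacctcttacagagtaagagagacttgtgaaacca

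Several windows held more than 1 match. Trip12, a ubiquitin ligase gene, had 3 within the 150 bases, Slc22a23, Alpk1, Glra1 and Slc38a4 had 2 each, and the other 7 windows had 1. Over all 253 regions there were 196 matches within 500 bp of the summit, 79 reading along the plus strand and 117 along the minus strand. A count of 113 regions had 1 match, 37 had 2, 3 had 3 and 100 had none. The regions with 3 were those of Trip12, Slc38a4, the gene of an amino acid transporter, and Nudcd1.

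The matches did not lie at the summits. Their median distance from the summit was 300 bp, and the middle 50% lay between 222 and 382 bp. At 200 to 400 bp on either side there were 1.22 matches per kb, against 0.336 per kb within 100 bp of the summit. In the other regions called in exactly 3 lists the values at the same distances were 0.247 and 0.189 per kb, and in the regions called in all 9 lists 0.182 and 0.169 per kb. The plot of matches by distance thus has a maximum on each side of the summit, at 11.1 per 100 regions in the bin centred at -250 bp and 15.0 in the bin at 350 bp, and 3.16 to 3.56 in the central bins.

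**Figure D1:**
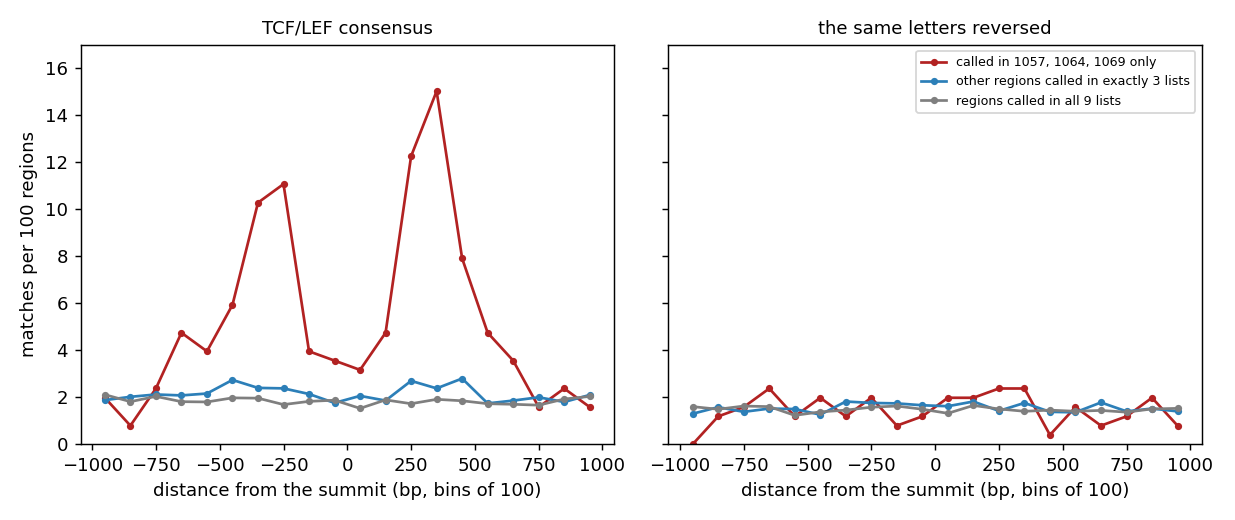
Matches to the TCF/LEF consensus (left) and to its letters reversed (right) per 100 regions, in bins of 100 bp by distance from the summit. The regions called in Ma_1057, Ma_1064 and Ma_1069 only (red) reach 11.1 and 15.0 matches on the flanks, while the other regions called in exactly 3 lists (blue) and those called in all 9 lists (grey) stay nearly level, as all sets do for the reversed letters.

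Over the whole length of the regions the consensus occurred 0.533 times per kb, against 0.226 per kb in the other regions called in exactly 3 lists and 0.217 in all autosomal regions. The contrast was of similar size within a band of widths. Among regions 1 to 3 kb wide, a limit chosen after the data were seen, the share within 500 bp of the summit was 58.8% (51.7 to 65.6%) in 187 of the 253 and 21.1% (19.8 to 22.5%) in 3309 others called in exactly 3 lists. Strength ordered the regions little in this respect. The share was 59.5% in the 84 regions of the highest mean percentile, 64.3% in the next 84 and 57.6% in the last 85, intervals that overlap. It was 62.1% (55.5 to 68.2%) in the 224 regions away from a transcription start and 48.3% (31.4 to 65.6%) in the 29 with a start within 1 kb, again with overlapping intervals.

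The high share was not particular to the 253 regions, and it followed line Ma_1069 more than line Ma_1064. Among autosomal regions called in a single list it was 51.4% (49.0 to 53.7%) for the 1732 of line Ma_1069, 36.1% (32.3 to 40.1%) for the 573 of line Ma_1057 and 22.5% (20.6 to 24.6%) for the 1648 of line Ma_1064. The 6 other lines gave 14.5 to 21.04%. Regions called in Ma_1057 and Ma_1069 only had 57.9% (53.8 to 61.8%, n = 577), an interval that overlaps that of the 253. Regions called in Ma_1057 and Ma_1064 only had 33.6% (28.8 to 38.8%, n = 336), and the 384 called in the 3 female ΔEcad lists and in the male Ecad line Ma_1007 had 48.2% (43.2 to 53.2%).

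**Figure D2:**
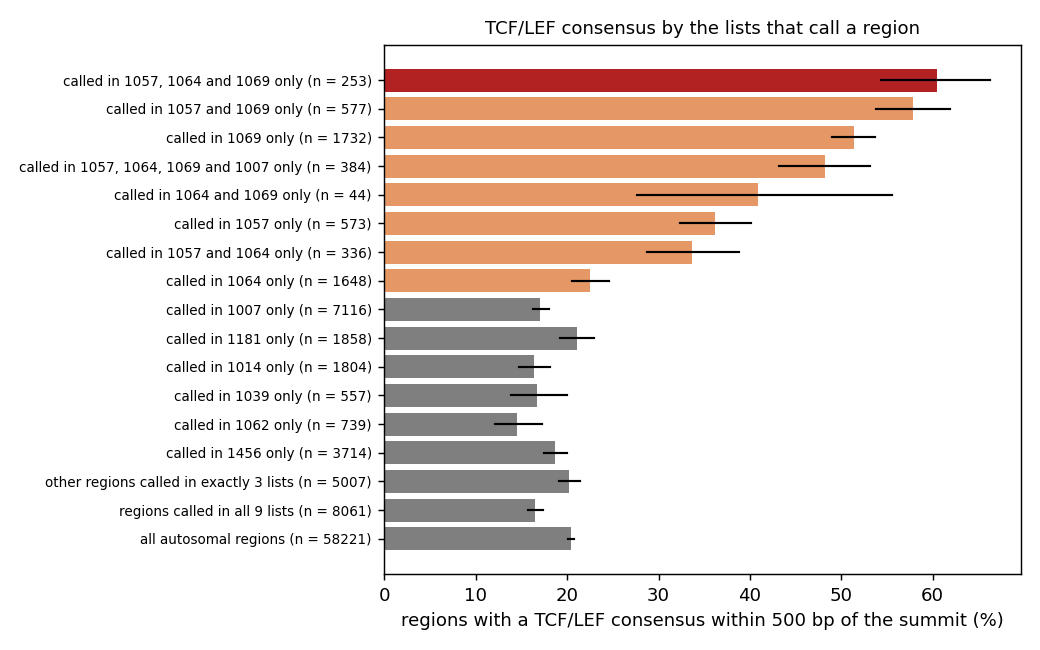
Share of autosomal regions with a TCF/LEF consensus within 500 bp of the summit (bars, in percent) by the lists that call the region, with the number of regions and 95% Wilson intervals as black lines. The regions called in Ma_1057, Ma_1064 and Ma_1069 only (red, 60.5%) lead, the 7 orange bars run from 22.5 to 57.9%, and the grey bars, for single lists of the 6 other lines and the larger sets, lie at 14.5 to 21.04%.

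Other consensus sequences differed less. The SOX letters AACAAAG or AACAATG, bound by SOX factors of the melanocyte lineage, were within 500 bp of the summit in 47.4% (41.4 to 53.6%) of the 253 regions and 41.8% (40.5 to 43.2%) of the other regions called in exactly 3 lists. The RUNX letters TGTGGTT occurred in 30.04% (24.7 to 35.95%) and 24.0% (22.8 to 25.2%). The TEAD letters GGAATGC or GGAATGT, bound by the partners of YAP1, occurred in 26.5% (21.4 to 32.2%) and 23.6% (22.5 to 24.8%). The intervals of SOX, RUNX and TEAD overlap between the sets. The AP-1 letters TGAGTCA or TGACTCA occurred in 20.9% (16.4 to 26.4%) against 28.0% (26.8 to 29.3%), but in 23.9% (23.6 to 24.3%) of all autosomal regions and 17.98% (17.2 to 18.8%) of those called in all 9 lists. The E-box letters TCACGTG or TCACATG of MITF, the master regulator of melanocytes, occurred in 20.6% (16.03 to 25.96%) against 25.9% (24.7 to 27.2%). The ETS letters CCGGAAGT occurred in 5 regions and the FOX letters TGTTTAC in 35, or 13.8% against 14.4%. A full oestrogen response element, AGGTCA facing its complement across 3 bases, occurred in none of the 253 windows and in 15 of all 58221. One arm of it, AGGTCA, occurred in 50.6% against 50.1%. Density on the flanks was not particular to TCF/LEF. In the 253 regions the SOX letters had 0.870 matches per kb at 200 to 400 bp from the summit and 0.395 within 100 bp. The TEAD, AP-1 and RUNX letters were also denser at 200 to 400 bp, and those of MITF, ETS, FOX and AGGTCA were denser within 100 bp. A match is a run of letters and not a measured binding site.

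The median GC content of the 500 bp around the summit was 45.4%, against 44.8% in the other regions called in exactly 3 lists and 49.8% in those called in all 9. They held on average 5.64 CpG dinucleotides in this window, against 8.26, 18.5 and, over all autosomal regions, 10.04, the lowest of these sets. The median share of masked repeats was 14.6%, the highest, against 12.6%, 9.20% and 11.8%. GC content thus differed little from the other regions called in exactly 3 lists, and CpG and repeats more.

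The peaks were of middling strength and unequal between the lines. Strength is given as the percentile of a peak's -log10 q among all peaks of its own list, which allows for the different scales of the lists. The median percentile was 53.6 in line Ma_1057, 30.1 in line Ma_1064 and 55.1 in line Ma_1069. The middle 50% of regions ran from 35.2 to 74.0, from 16.8 to 54.2 and from 31.8 to 76.4. Line Ma_1064 was the lowest of the 3 at 142 regions, Ma_1069 at 63 and Ma_1057 at 48, and line Ma_1069 was the highest at 125. In the other regions called in exactly 3 lists the medians were 28.3, 33.0 and 38.9, so that Ma_1057 and Ma_1069 stood higher at the 253 regions and Ma_1064 did not. At regions called in all 9 lists they were 76.6, 78.0 and 67.5. All 253 regions are called in the 3 lines by the rule, while 1222, 1773 and 647 of the 5007 comparison regions are. The contrast with those comparison regions is thus a description only.

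The median fold enrichment at the 253 regions was 9.42, 6.79 and 8.80 in lines Ma_1057, Ma_1064 and Ma_1069, with ranges of 3.36 to 25.6, 2.47 to 31.8 and 2.63 to 37.4. Their median -log10 q was 24.3, 13.9 and 23.2. As a description across regions that share libraries, the percentiles of Ma_1057 and Ma_1069 had a Spearman correlation of 0.476, those of Ma_1057 and Ma_1064 of 0.386, and those of Ma_1064 and Ma_1069 of 0.137. At the 8061 regions called in all 9 lists the values were 0.769, 0.751 and 0.583. Of the 253 regions, 44 lay in the upper 50% of all 3 lists and 63 in the lower 50% of all 3, and 70 spanned 50 percentile points or more between lines.

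**Figure D3:**
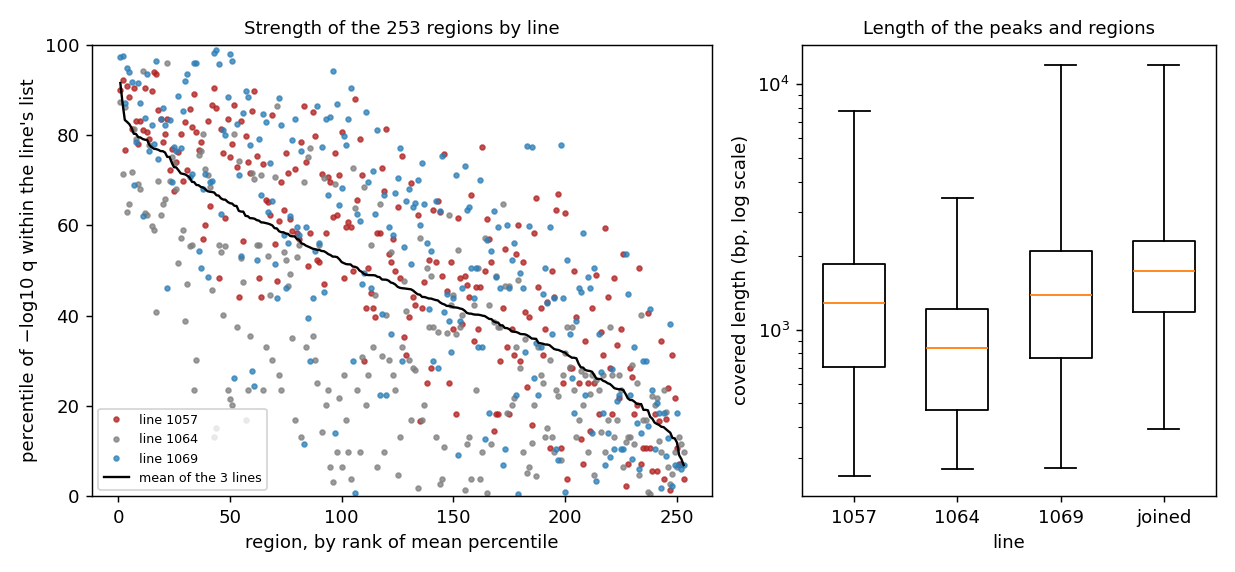
Left, percentile of each region's -log10 q within the list of line Ma_1057 (red), Ma_1064 (grey) and Ma_1069 (blue), with the mean of the 3 as a black line, for the 253 regions ordered by that mean. Right, length covered by the peaks of each line and by the joined regions on a log scale, with boxes for the median and quartiles and whiskers for the full range. Grey points lie mostly below the line, and line Ma_1064 has the shortest peaks, with a median of 841 bp.

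The joined regions were 392 to 11925 bp wide, with 43 under 1 kb, 23 over 3 kb and 6 over 5 kb. Wider regions were stronger, with a Spearman correlation of 0.669 between width and mean percentile. The peaks of line Ma_1064 covered a median of 841 bp, those of Ma_1057 1285 bp and those of Ma_1069 1377 bp. In 213 regions each of the 3 lines had exactly 1 peak. The summits of the 3 lines lay further apart on median than at regions called in all 9 lists. The median distance was 83 bp between Ma_1057 and Ma_1064, 74 bp between Ma_1057 and Ma_1069 and 98 bp between Ma_1064 and Ma_1069, against 40, 43 and 53 bp at regions called in all 9 lists. All 3 summits fell within 200 bp in 140 regions, or 55.3%.

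The strongest region by mean percentile, 91.5, lay in the gene of optineurin, an autophagy receptor (Optn, chr2:5041819-5047151). It overlapped an exon 4622 bp from the nearest start of Optn and stood at the percentiles 89.98, 87.2 and 97.3 in lines Ma_1057, Ma_1064 and Ma_1069. Its fold enrichments were 24.9, 21.1 and 34.1. At the promoter of Optn a peak was present in all 9 lists except that of Ma_1456. The next was in an intron of Wwc1 (chr11:35937786-35942923), which encodes KIBRA, an upstream component of the Hippo pathway, 37604 bp from the nearest start. Its percentiles were 92.2, 71.3 and 97.6. The promoter of Wwc1 was called in lines Ma_1057, Ma_1069 and Ma_1007 only.

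Regions 3 to 10 had mean percentiles of 79.4 to 83.3. They lay between the olfactory receptor genes Olfr875 and Olfr876, in Fam228b, in an intron of the transporter gene Slc22a23, 6103 bp from Fcrl6, between Ctbp1, a transcriptional corepressor, and Maea, in an intron of the tubulin-modifying Ttll5, near Camsap2, which binds microtubule ends, and in an intron of Mettl8. At Olfr875 the 3 lines were close, with percentiles of 76.6, 86.2 and 87.2, and no list had a peak at the promoter of Olfr875. The promoters of Ctbp1, Ttll5, Camsap2 and Mettl8 were called in all 9 lists.

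The next 20 regions, with mean percentiles of 71.3 to 79.1, included the genes of signalling proteins. A region in an intron of Tgfbr2, the type II receptor for TGFβ (chr9:116114007-116115986), stood at percentiles of 72.3, 69.9 and 83.3, with folds of 13.9, 12.8 and 16.4. An exon of Rasa2, which restrains RAS, was overlapped by a region at 74.0, 68.1 and 76.4. A region 248884 bp from Pik3r1, a regulatory subunit of PI3 kinase, stood at 85.5, 69.9 and 74.7. In these cases no line stood far from the others, and the promoters of all 3 genes were called in 9 of 9 lists.

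The rest of these 20 lay at Mark1, Lrch1, Zdhhc19, Trip12, Mllt3, Alpk1, Iscu, Tlnrd1, Fgfbp3, Cemip2, Dapl1, Cenpf, Pabpc6, Mrgprd, Slx4ip, Zfp710 and Fhod3. Mark1, a kinase that acts on microtubule-associated proteins, had percentiles of 81.1, 94.1 and 62.1, and was thus strongest in line Ma_1064. Iscu, an assembly factor for iron-sulphur clusters, had 93.5, 40.7 and 96.3, and was weakest there. The region near Mrgprd, at the end of chromosome 7, was out of keeping with the others. It was 456 bp wide with folds of 3.36, 2.47 and 3.86 and yet had percentiles of 76.3, 51.7 and 88.6.

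The widest region, of 11925 bp (chr11:55796783-55808707), lay 188585 bp from Glra1 and 232303 bp from Nmur2, with no protein-coding gene over it. Its percentiles were 85.9, 15.2 and 98.9. In line Ma_1069 peaks covered all 11925 bp, in Ma_1057 7767 bp and in Ma_1064 355 bp. The region between Rnf149 and Creg2 had the same order, at 90.5, 13.1 and 98.1. At the other end of the scale, the regions near Trim52, Sptlc2 and Tcf4, the E protein gene and not the TCF/LEF gene Tcf7l2, had mean percentiles of 6.89, 8.21 and 9.06.

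The deposited lists end at a -log10 q of 5, and many regions lay near that edge. The weakest of the 3 peaks was under 10 at 95 regions, or 37.5%, and under 6 at 9. Just inside were a region at Tesc, held by a value of 5.19 in line Ma_1069 against 29.2 in Ma_1057 and 21.6 in Ma_1064, and a region near Dusp4, at 5.28 in Ma_1069 against 86.9 and 33.4. Just outside were a region near Ube2e2, excluded by a peak of 5.03 in line Ma_1007 against 23.2, 20.99 and 12.7 in the 3 lines, and a region at Aldh1l1, excluded by 5.89 in line Ma_1007 against 142, 32.2 and 68.0. Line Ma_1007, which has the longest list, was the only other caller at 384 of the 501 regions called in the 3 lists and in 1 other. Without that list the same rule gives 656 regions.

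Most regions were distal. A start of any annotated transcript lay within 1 kb of 29 regions, 11.5% (8.10 to 15.98%), against 20.9% (19.8 to 22.04%) of the other regions called in exactly 3 lists and 27.4% of all autosomal regions. A further 30 regions overlapped an exon, 113 (44.7%) lay in introns and 81 (32.0%) between genes. The corresponding shares in the other regions called in exactly 3 lists were 9.89%, 39.6% and 29.6%. The median distance to a protein-coding start was 22882 bp, against 16394 bp, and 78 regions were more than 50 kb from one. Regions lay within a protein-coding gene in 152 cases and between genes in 101.

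In 15 regions the start within 1 kb was that of a protein-coding gene: Trip12, Tiam2, Naip2, Wrnip1, Mboat1, Schip1, Slc37a3, Tnk2, Kdm3a, Bok, Uggt1, Lrch3, Ptdss2, Pfdn2 and Trak2. Of all 20807 autosomal protein-coding genes, 3 had a promoter peak in the 3 female ΔEcad lists and in none of the others, 0.0144%, and Naip2 and Mboat1 were 2 of them. Naip2, which encodes an inflammasome sensor, had percentiles of 63.4, 54.2 and 57.8. Mboat1, a lysophospholipid acyltransferase, had 44.2, 13.1 and 64.0. The third was Cyp7a1, to which none of the 253 regions was assigned. The promoters of 8 of the 15 genes, among them Trip12 and Kdm3a, a histone demethylase, were called in all 9 lists when every start was counted. Schip1 was called in the 3 lines and in Ma_1007.

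The remaining 14 regions with a start within 1 kb were at non-coding transcripts: Gm36994, AC148016.1, AC105304.3, Gm15527, Rubie, Gm35190, Gm25888, Gm47073, Gm4804, Gm13790, Gm36723, CT025659.1, Gm47485 and Gm13919.

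The regions were spread unevenly over the chromosomes. Chromosome 12 held 27 of the 253, or 10.7%, against 4.58% of all autosomal regions and 4.91% of the other regions called in exactly 3 lists. Chromosome 17 held 16 (6.32% against 3.94%) and chromosome 16 held 15 (5.93% against 3.76%), while chromosome 4 held 8 (3.16% against 6.56%), chromosome 11 held 8 (3.16% against 6.33%) and chromosome 19 held 2 (0.791% against 2.78%). Lines Ma_1057 and Ma_1064 had 5.23% and 5.99% of their autosomal peaks on chromosome 12, line Ma_1069 4.49% and the other lines 3.89 to 5.04%.

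The 253 regions were assigned to 235 protein-coding genes, and 389 protein-coding genes hosted or flanked them. The genes were long, with a median of 80.02 kb against 17.6 kb for all protein-coding genes and 54.7 kb for the genes of the other regions called in exactly 3 lists. The part of gene length in these counts was not tested. A group of 15 genes had 2 regions or more. Clusters of regions less than 100 kb apart numbered 15 and held 33 regions, of which 13 clusters had 2, 1 had 3 and 1 had 4.

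Tiam2, which encodes an activator of the small GTPase Rac, had 4 regions over 94.7 kb (chr17:3359376-3454075), the most of any gene. From the 5′ end they were 1956, 888, 2346 and 2606 bp wide. The first stood at percentiles of 18.3, 36.0 and 71.1 in lines Ma_1057, Ma_1064 and Ma_1069, the second at 31.4, 26.9 and 18.4, the third at 37.0, 13.1 and 50.6 and the last, 171 bp from an internal start of the gene, at 76.6, 75.7 and 54.3. The regions stood among peaks that other lines shared, and the promoter of Tiam2 was called in lines Ma_1007, Ma_1181 and Ma_1062 as well as in the 3. A Tiam2 peak 104 to 109 kb into the gene was among the strongest of the female ΔEcad lists, at percentiles of 99.0, 98.2 and 98.8, and peaks overlapped it in the 6 other lists at percentiles of 63.3 to 97.5.

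Dapl1, a gene related to a death-associated protein, had 3 regions over 41.1 kb (chr2:59468496-59509634), 12862 bp upstream of its start, in its body and just beyond its end. The upstream region stood at 61.9, 3.06 and 94.2, the region in the gene at 39.6, 44.6 and 62.5 and the downstream region at 83.5, 95.8 and 46.1. No line was highest in all 3. The promoter of Dapl1 had no peak in any of the 9 lists.

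Esr1, the gene of oestrogen receptor α, had 1 region, in an intron 5430 bp from its nearest start (chr10:4617451-4619579). It stood at 66.8, 3.83 and 50.6, with folds of 12.6, 4.89 and 8.80, so the call in line Ma_1064 was near the bottom of its list. The promoter of Esr1, an intronic peak just downstream and another near the end of the gene were called in the 3 lines and in Ma_1007, and lines Ma_1181, Ma_1014, Ma_1039 and Ma_1062 had no peak in the gene.

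**Figure D4:**
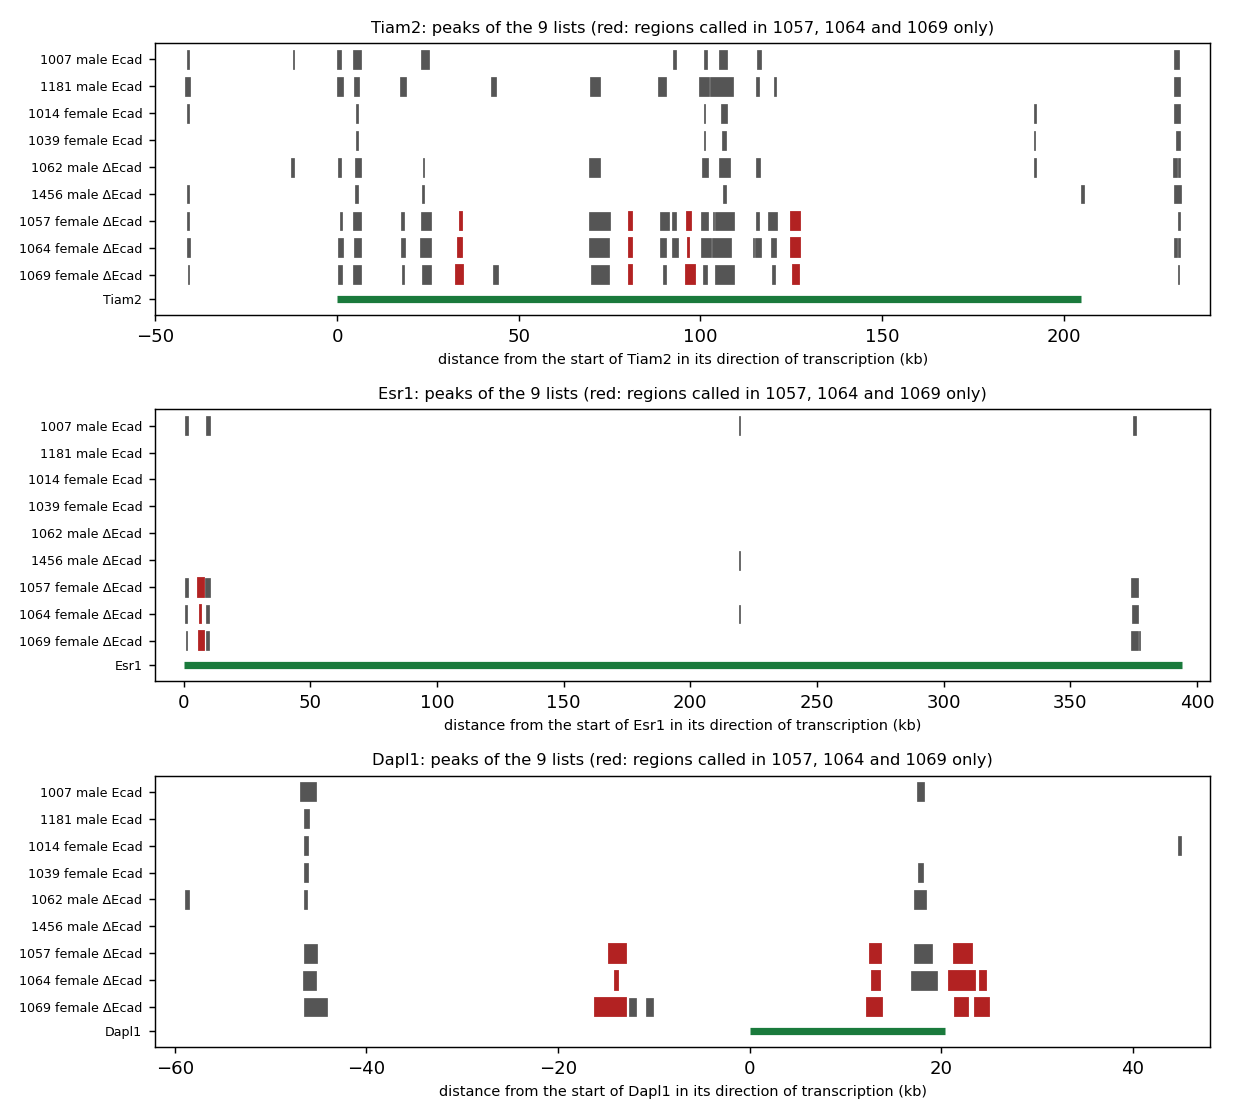
Peaks of the 9 lists around Tiam2, Esr1 and Dapl1 by distance from the start of each gene in kb, with 1 row for each line and the gene as a green bar. Red bars are peaks of the regions called in Ma_1057, Ma_1064 and Ma_1069 only (4 at Tiam2, 1 at Esr1, 3 at Dapl1), and dark grey bars are all other peaks, many of which the other lines share at Tiam2 and few at Esr1.

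The other genes with 2 regions were Atxn7l1, Bcap29, Hlx, Itga9, Itpr2, Mark1, Nuak1, Pabpc6, Ptdss2, Rap2a, Rbms3, Slc22a23 and Slx4ip. Some pairs were close neighbours, as the 2 regions of Bcap29 spanned 1.228 kb in all and those of Rap2a 1.735 kb. With peaks within 500 bp joined, 11 genes had 2 regions or more. Itpr2, a calcium channel of the endoplasmic reticulum, had 2 in introns, at 74.0, 33.0 and 59.5 and at 7.04, 13.1 and 44.9, and its promoter was called in lines Ma_1064 and Ma_1069 and in none of the 6 other lists. Itga9, integrin α9, had 2 in introns at mean percentiles of 50.9 and 46.9. Slc22a23 had an intronic region at 88.5, 64.7 and 94.0 and an upstream region at 79.7, 16.8 and 89.7, while its promoter was called in lines Ma_1007, Ma_1014 and Ma_1456 only. The regions near Hlx and Nuak1 were 157284 to 223108 bp from the start of the gene, and those near Pabpc6 234153 and 259411 bp.

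Of the genes in 13 lists fixed by function, few carried a region, beside a background of 1.13% of the 20807 protein-coding genes. The Hippo and YAP list had 3 of 33 (9.09%), Crim1, Frmd6 and Wwc1. Axon guidance had 3 of 68 (Efna5, Robo1, Sema6d), RTK, RAS and MAPK signalling 4 of 111 (Dusp22, Dusp4, Igf1r, Rasa2), TGFβ and BMP signalling 2 of 62 (Id2, Tgfbr2) and matrix and integrins 4 of 178 (Col11a1, Col25a1, Col28a1, Itga9). At the other regions called in exactly 3 lists, each of the 13 lists was above the share of all protein-coding genes, 16.7%, at 18.2 to 58.3%.

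The lists nearest to β-catenin each had 1 gene with a region, or 4.17% of WNT feedback genes and targets, 1.72% of ligands and receptors, 1.64% of cadherins and catenins and 1.67% of nuclear receptors, against the background of 1.13%. Of the 24 WNT feedback genes and targets it was Ccnd1, cyclin D1, 13261 bp from its start at percentiles of 56.9, 26.9 and 57.8. Of 58 ligand and receptor genes it was Kremen1, a receptor that restrains WNT signalling, at 26.4, 29.1 and 8.29. Of 61 cadherin and catenin genes it was Cdh6, cadherin 6, at 41.8, 26.9 and 14.1, and of 60 nuclear receptor genes Esr1. Dact1, an antagonist of WNT signalling outside these lists, had a region 29137 bp from its start at 42.3, 28.0 and 65.0, and its promoter was called in the 3 lines and in Ma_1007 alone. None of the 17 melanocyte genes carried a region, and of 52 neural crest and EMT genes Sox5 did. The ion channel and transporter list had 11 of 545 and the G protein list 5 of 192, Adcy2, Adgrl2, Gng12, Pde4d and Prkcq.

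The 235 genes were also grouped by what they are known for, after their names were seen, which makes the groups a description only. Cell adhesion, junctions and matrix made 19 genes with 20 regions: Cd200, Cdh6, Chl1, Cldn11, Cldn23, Col11a1, Col25a1, Col28a1, Itga9, Jam2, Magi3, Ptprj, Ptprm, Ptprq, Stab2, Svep1, Tenm3, Tenm4, Vezt. Their highest mean percentile was 64.9. Receptors and kinase signalling made 24 genes with 25 regions: Alpk1, Amhr2, Dgkz, Dusp22, Dusp4, Id2, Igf1r, Kidins220, Lrig2, Mapkap1, Pid1, Pik3r1, Pim1, Rap2a, Rasa2, Rgl1, Rps6kl1, Stk39, Tek, Tgfbr2, Tmeff2, Tnk2, Trib2, Twsg1.

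Transcription factors and their partners made 19 genes with 20 regions: Bcl11a, Creb1, Ctbp1, Egr2, Esr1, Etv6, Hlx, Npas3, Nrip1, Rcor1, Runx1, Sox5, Sp6, T2, Tcf12, Tcf4, Zbtb10, Zfp532, Zfp710. In 16 of these 20 regions a TCF/LEF consensus lay within 500 bp of the summit, beside 60.5% of all 253 regions. WNT and Hippo genes made 6 with 6 regions, Ccnd1, Crim1, Dact1, Frmd6, Kremen1 and Wwc1, of which 2 regions held the consensus there. These were the regions of Frmd6 and Wwc1, and those of Ccnd1, Dact1, Kremen1 and Crim1 had none. The genes of G protein-coupled receptors and cyclic AMP signalling were these: Adcy2, Adgrl2, Cxcr4, Gng12, Lpar3, Mrgprd, Olfr875, Pde4d, Prkar2b, Prkcq, Rxfp1, Vip, a, the last of these, a, being the agouti gene that switches pigment type. Those of channels, neurotransmitter receptors and calcium signalling were Cadps, Calml3, Cbln2, Glra1, Gria4, Grik2, Itpr2, Kcnj6, Kcnrg, Kctd3, Ryr2, Stim2, Syt6, Tesc, Tmem38b.

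Solute carriers made 8 genes with 9 regions, Flvcr2, Slc22a23, Slc24a4, Slc30a10, Slc35b3, Slc37a3, Slc38a4, Slc7a11, and the consensus was near the summit in 8 of the 9. Redox and mitochondrial genes made 6 with 6 regions, Afg1l, Gclc, Immp2l, Iscu, Pcca, Txnrd1, and all 6 held it. Gclc, the rate-limiting enzyme of glutathione synthesis, and Slc7a11, the cystine transporter that supplies it, were among these groups. The consensus was near the summit at Gclc but not at Slc7a11, the exception among the solute carriers. The region near Gclc stood at 41.8, 16.8 and 73.8 and that in Slc7a11 at 58.3, 20.2 and 26.2. Lipid metabolism made 10 genes with 11 regions: Acad10, Cers6, Gpat3, Mboat1, Mtmr12, Osbpl9, Pla2g12a, Plpp1, Ptdss2, Sptlc2. They had the lowest median of the mean percentiles, 33.6. The consensus lay within 500 bp of the summit in 60.5% of all 253 regions. It did so in 7 of 11 for lipid metabolism, 12 of 16 for channels and 8 of 13 for G protein-coupled receptors. For receptors and kinase signalling it was 14 of 25, for adhesion 11 of 20 and for the ubiquitin pathway 5 of 8. Cell cycle and death had 4 of 9, axon guidance 1 of 3 and chromatin 2 of 7. As the groups were made by hand, nothing is read from these counts.

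Chromatin genes were Anp32a, Cbx3, Hdac9, Hira, Hist1h1e, Kdm3a, Mllt3. Cell cycle and cell death genes were Birc6, Bok, Bub1b, Cdkn3, Cenpf, Dad1, Ddit4, Mdm4, Naip2. Genes of the ubiquitin pathway were Cand1, Herc1, Rnf149, Trim52, Trip12, Ube2e1, Ube2e2, Usp25, and axon guidance genes were Efna5, Robo1, Sema6d. The 66 genes in no group had 73 regions: Anxa7, Ap1ar, Atxn7l1, Bcap29, Bst1, Btbd3, Bzw2, Ccdc148, Cemip2, Cep112, Cep63, Cfdp1, Crybg1, Dapl1, Dgcr2, Dtd2, Eri3, Fahd2a, Fam222a, Fam222b, Fam228b, Fam84b, Fcrl6, Fgfbp3, Fndc7, Gipc2, Gm9008, Gm9817, Gxylt1, Lacc1, Ldlrad3, Lrch1, Lrch3, Lrmda, Lrrc74a, Mettl8, Nudcd1, Olfm2, Optn, Pabpc6, Parp8, Pfdn2, Plcl1, Polr1a, Pomt2, Ppp1r3b, Psd3, Rab21, Rbms1, Rbms3, Rnaset2b, Rpn2, Schip1, Sec14l5, Sec61b, Slx4ip, Stau2, Ston2, Trak2, Tspyl1, Uggt1, Wrnip1, Xxylt1, Zdhhc19, Zranb2, ccdc198.

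Many of these genes had a promoter called in every line. Of the 235 genes, 220 had no start within 1 kb of a region. Of these, 85 (38.6%) had a promoter called in all 9 lists and 46 (20.9%) in none. Over all 20807 protein-coding genes the shares were 21.9% and 45.7%. For 3459 genes of the other regions called in exactly 3 lists they were 29.6% and 20.5%. A larger share of the 3 lists than of the 6 others called the promoter of 32 of the 220 genes, or 14.5%. That held for 3.35% of all protein-coding genes and 6.16% of the 3459. A smaller share called the promoter of 51 of the 220 (23.2%), against 28.1% and 40.7%. The regions were chosen for calls in the 3 lists, and the comparison genes were not, so nothing is read from these contrasts.

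By line, a promoter peak was present for 58.2% of the 220 genes in Ma_1057, 61.4% in Ma_1064 and 53.6% in Ma_1069, and for 55.9 to 75.5% in the other lines. The shares over all protein-coding genes were 31.2%, 34.7% and 26.3% in the 3 lines and 39.7 to 49.97% in the others. The genes with the clearest tilt were Esr1 and Dact1, called in the 3 lines and in Ma_1007, Gipc2 and Itpr2, called in 2 of the 3 and in no other, and Mark1, Phldb2 and Wwc1, called in 2 of the 3 and in 1 other. In the opposite direction, the promoters of Bcl11a, Arhgef10l and Gclc were called in 6 of 6 other lists and in none of the 3, although each gene had a region called only in the 3. That pattern was no more common here than elsewhere. It held for 3 of the 220 genes and for 499 of all 20807 protein-coding genes. Of 3459 genes of the other regions called in exactly 3 lists, 74 had it. Bcl11a, a zinc finger repressor, had its region 500671 bp from the start, at percentiles of 65.6, 23.6 and 62.5.

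Within 50 kb of the regions, leaving out the peaks at the region itself, there were 3.25 peaks per region in line Ma_1057, 3.21 in Ma_1064 and 2.73 in Ma_1069. The 6 other lines had 1.82 to 3.17 peaks per region there. At the other regions called in exactly 3 lists, Ma_1057, Ma_1064 and Ma_1069 had 2.29, 2.65 and 1.81. The 6 other lines had 2.12 to 3.56 at those comparison regions. All 253 regions are called in the 3 lines by the rule, while 1222, 1773 and 647 of the 5007 comparison regions are, so nothing is read from the contrast.

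**Figure D5:**
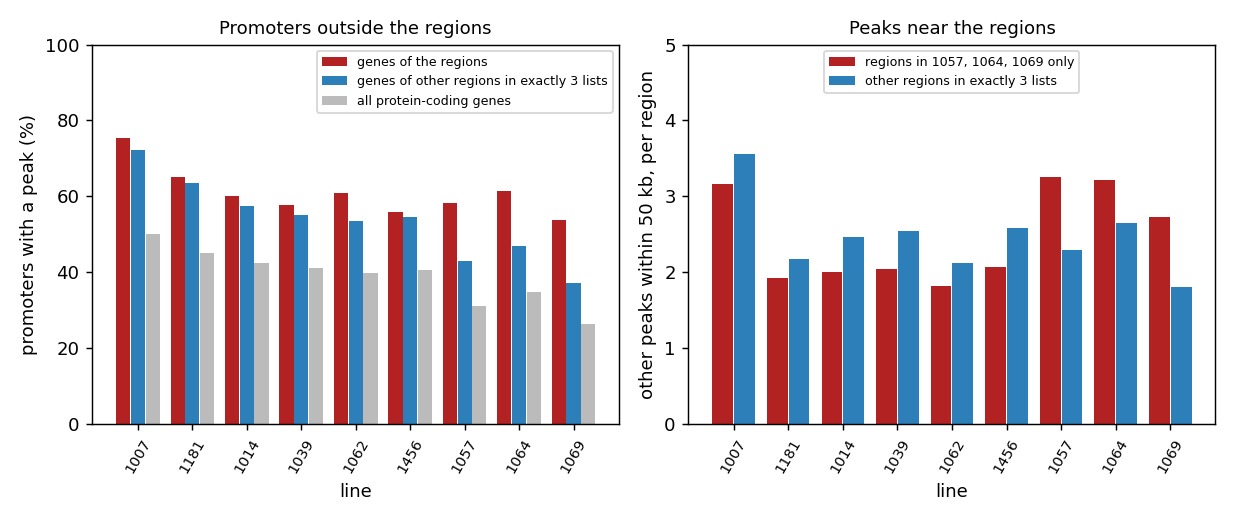
Left, percent of promoters with a peak within 1 kb in each line for 220 genes of the regions (red), 3459 genes of the other regions called in exactly 3 lists (blue) and all protein-coding genes (grey). Right, peaks of each line within 50 kb of a region, other than at it, per region. On the right, red stands at 3.25, 3.21 and 2.73 peaks in Ma_1057, Ma_1064 and Ma_1069, the lines for which the regions were chosen.

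Few of the regions stood in empty surroundings. The nearest peak of any of the 6 other lists was at a median of 9732 bp, within 1 kb at 17 regions and within 10 kb at 131, and it was more than 50 kb away at 23. Line Ma_1007 was the nearest on median, at 14188 bp, and the other lines lay at 20952 to 27045 bp. Leaving out peaks at the region, each of these 6 lists had a peak within 50 kb of 66.4 to 84.2% of the 253 regions. The range was 70.5 to 85.6% at the other regions called in exactly 3 lists, so such surroundings were not particular to the 253.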

How the data were processed

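H3K27ac ChIP-seq peaks of 9 mouse melanoma lines, 1 list each, were analysed; the input libraries were not analysed here. The submitters' processing notes name Bowtie2 2.4.5, MACS2 2.2.7.1 and deepTools 3.5.1.0.0 and the builds GRCm38 and mm10. The authors deposited for each peak a score, a fold enrichment (a ratio over background) and p and q values as -log10. Which input was set against which list, and the depth that each library reached, are not given in the sources used here. Every peak end fell within the GRCm38.p6 chromosomes.

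Overlapping or touching peaks of the 9 lists were joined, and the regions selected by the pattern of calls. Where a line had several peaks at a region, the strongest stood for it. GENCODE M21 gave genes and starts, RefSeq GRCm38.p6 the sequence. A promoter was called with a peak within 1 kb of any start of the gene. Motifs were searched on both strands around the summit of highest percentile, in 500 bp and 1000 bp. Shares have 95% Wilson intervals. Python 3.11.15 with numpy 2.4.6, scipy 1.17.1 and pyfaidx 0.9.0.4 was used, and selection and search were tested on simulated data. No p-value was computed, since each line is 1 sample and the calls chose the regions.

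The members and lists were chosen with earlier results of these data known. Genes named were those of the 30 regions of highest mean percentile, with 2 or more regions, with a start within 1 kb or in the functional lists. The others were named by functional group, assigned by hand after the names were seen. Alternatives were stricter q, equal list lengths, joining within 500 bp, other overlaps, each line left out, and other windows and assignments. One list of genes and one functional group are not reported here.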

Additional observations from a re-analysis of the deposited data

How the results depend on the processing

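The 5 summary values were recomputed under each alternative. With a -log10 q of 10 or more the median width was 1879 bp over all 9 lists, and, where the limit was set in the 3 lists only, 1880 bp with 158 regions and 8 genes with 2 or more regions. Lists of equal length gave 395 regions and 37 such genes. Asking each line to cover at least 50% of a region gave 103 regions, 1439 bp and 4 genes. Base pairs shared by the 3 lists gave 495 bp and 46 genes, by construction shorter. The TSS share was 18.97% within 3 kb and 5.93% for protein-coding genes only, and the TCF/LEF share 22.9% in 500 bp, 60.5% in 1000 bp and 65.2% over whole regions.

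Leaving out each line in turn gave 257 to 837 regions, median widths of 1168 to 1765 bp, TSS shares of 9.36 to 12.4%, TCF/LEF shares in 500 bp of 19.8 to 23.1% and 15 to 135 genes with 2 or more regions. Both counts passed 1.5 times the reported ones without line Ma_1007 (656 regions, 97 genes), Ma_1064 (837, 135) and Ma_1069 (598, 72). The TCF/LEF share in 500 bp stayed within its interval under every alternative that changed the regions. The share within 500 bp of the summit, a measure taken up after the data were seen, was recomputed under the same alternatives and did not. It was 53.4% with lists of equal length, and 45.99 to 60.3% with each line left out, at 52.1% without Ma_1007 and 45.99% without Ma_1069. The depth that each library reached is unknown, so a missing peak is not evidence of absent acetylation. No paired analysis was possible because no result comes from a test and each line is 1 sample.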

Other observations

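The same pattern of calls occurred at 6 regions outside the autosomes, all on the X chromosome and left out of every count above. The widest, of 21181 bp (chrX:163529785-163550965), lay within Grpr, which encodes the gastrin-releasing peptide receptor, and a second of 972 bp (chrX:163654862-163655833) lay between genes with Grpr as the nearest. The others lay near Gm4779, Tceal7 and Ap1s2 and within Car5b, and were 1169 to 2226 bp wide. The female Ecad lines Ma_1014 and Ma_1039, like the 4 male lines, have no peak there by the rule.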
